A study of Mus musculus with 6 samples.

Results

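The 9 genes described here encode enzymes and cofactors that write, copy or remove cytosine methylation in DNA, and they were chosen by name from the 55335 genes counted in mouse embryonic fibroblasts (MEF). Maintenance of methylation was represented by Dnmt1, Uhrf1 and Hells, de novo methylation by Dnmt3a and Dnmt3b, and oxidation and excision by Tet1, Tet2, Tet3 and Tdg. Gene expression was compared between wild-type MEF cells that had crossed a 3 μm pore transwell filter and were collected after 15 h (Confine) and wild-type parental cells (Ctrl), to find genes that differ in cells that had migrated under confinement. Culture medium with serum is given for the cells of both groups, the medium inside the transwell is not given for these samples, and the labels do not say from how many embryos or cultures the libraries were made, so the spread between libraries may be technical. Only cells that had crossed the membrane were collected, so a response to passage and a selection of cells able to pass cannot be told apart.

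The deposited table has 3 columns for each group, but Confine replicates 1 and 2 were identical over all 55335 rows, so the pair entered once, under the name Confine replicate 2. The comparison therefore rested on 3 Ctrl and 2 Confine libraries, which held between 22287210 and 32537550 counts. Of the 13 fibroblast markers, Vim, Col1a1 and Fn1 were abundant in every library, whereas Thy1 and Lum had at most 2 counts in a library and Dcn at most 27. Among markers of other cell types, Adgre1, Cd3e, Epcam and Pou5f1 had no count and Ptprc at most 2 counts in a library, and none of the 7 epithelial markers was high enough to test. Vwf, the only one of 6 endothelial markers tested, rose from 7, 17 and 7 counts in Ctrl to 72 and 64 in Confine, a log2 fold change of 2.64 (adjusted p = 0.000320), and its part in the results below was not tested. The summed level of the 10 leukocyte markers was 15.8 to 17.8 CPM (counts scaled to a common library size) in Ctrl and 35.6 to 41.3 in Confine. Cd68, a lysosomal protein gene, and Cd14 were the most counted in Confine. The 4 tested leukocyte markers did not move together, as 3 rose (Cd68, Cd14 and Csf1r) and 1 fell. Lyz2 fell from 152, 101 and 87 counts in Ctrl to 17 and 20 in Confine, a log2 fold change of -2.64 (adjusted p = 3.53e-05). The part of these markers was not tested either. Actb, which encodes β-actin, differed by a log2 fold change of -0.013 (adjusted p = 0.970, edgeR).

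Methyl groups on CpG dinucleotides are copied after replication by DNMT1, which UHRF1 brings to hemimethylated DNA and which the chromatin remodeler encoded by Hells assists. DNMT3A and DNMT3B place methyl groups on unmethylated DNA. TET enzymes oxidize the methyl group in a reaction that needs oxygen, iron and 2-oxoglutarate, and the glycosylase TDG removes the oxidized bases for repair, while DNA that is replicated without maintenance loses methylation passively.

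The transcripts of Dnmt1, Uhrf1 and Hells fell together. Their RefSeq start regions each held a word from a searched list, and those of the other 6 genes held none. No single word was in all 3. The table of start regions (GRCm38.p6, 250 bases before and 50 after each start) matched all 9 genes with 14 windows, and for each gene the window with the most CpG dinucleotides was read. The words searched on both strands for E2F factors, regulators of S phase genes, were TTTCGCGC, TTTGGCGC, TTTCCCGC and TTTGCCGC, which these factors are known to bind. At least 1 of them was present in the windows of Dnmt1, Uhrf1 and Hells and in 2.26% of all 32851 windows, or 5.15% of the windows with at least 20 CpGs. A match was at 1 of the 3 starts of Dnmt1, 1 of the 2 starts of Uhrf1 and the 1 start of Hells. The word in Hells was in neither Dnmt1 nor Uhrf1. The same windows were searched for the hypoxia-response cores ACGTG and GCGTG, which were in those of Dnmt1, Uhrf1, Tet2 and Tdg. The cores were in 43.8% of all windows and in 73.6% of the windows with at least 20 CpGs. A core was also at 1 of the 3 starts of Dnmt3a, outside the window read. The word CCAAT was in the windows of Dnmt1, Uhrf1, Tet3 and Tdg. It was in 37.4% of all windows and in 32.9% of the windows with at least 20 CpGs. These shorter words are in far more windows, so the 3 searches cannot be compared as ways to tell the genes apart. The part of any of these words in the changes was not tested. The stretches around the E2F matches are shown with the matched word in capitals, each read 5′ to 3′ on the strand of the gene.
Dnmt1, chr9:20952824-20952853, minus strand: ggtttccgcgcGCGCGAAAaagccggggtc
Dnmt1, chr9:20952574-20952601, minus strand: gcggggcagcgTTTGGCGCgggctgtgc
Uhrf1, chr17:56304117-56304146, plus strand: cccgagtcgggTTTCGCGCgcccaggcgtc
Hells, chr19:38930917-38930946, plus strand: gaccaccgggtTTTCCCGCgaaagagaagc
GENCODE places the matches of Dnmt1 and Hells in annotated untranslated sequence and that of Uhrf1 outside any exon of the gene. Of the S phase genes used below for comparison, 7 of the 17 with a window held such a word. A match describes letters only, and binding was not measured here.

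Tet2, the gene with the largest rise of the 9, is shown for contrast with the 250 bases before its start at chr3:133544391-133544640, minus strand. This window held the most CpGs of the 9 genes, 57 over its 300 bases, where the median over all windows was 7, and no E2F word.
Tet2: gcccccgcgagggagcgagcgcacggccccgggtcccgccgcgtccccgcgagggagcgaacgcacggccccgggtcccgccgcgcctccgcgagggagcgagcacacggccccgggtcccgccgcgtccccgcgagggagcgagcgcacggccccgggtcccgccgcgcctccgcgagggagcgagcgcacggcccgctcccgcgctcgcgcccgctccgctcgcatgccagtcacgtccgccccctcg
The windows of the other genes held 47 CpGs for Dnmt3a, 34 for Hells, 33 for Dnmt1, 33 for Uhrf1, 30 for Dnmt3b, 26 for Tdg, 22 for Tet3 and 17 for Tet1. CpG-rich starts were thus found among genes that rose and among genes that fell.

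All 9 genes were tested in the fit over 15881 genes. At an adjusted p under 0.05 by edgeR's quasi-likelihood test, 6 of the 9 differed between Confine and Ctrl, where 23.0% of all tested genes did. Dnmt3a, Tet1 and Tet2 rose, as 12.8% of tested genes did, and Dnmt1, Uhrf1 and Hells fell, as 10.2% did. With the study's cutoff of 1.5 on the absolute log2 fold change added, Tet1 and Tet2 were higher, as were 4.89% of tested genes, and Hells was lower, as were 3.11%. The groups did not overlap for 7 of the 9 genes, with Confine above Ctrl for 4 (25.9% of all tested genes) and below for 3 (23.6%), a share of 49.5% of tested genes in either direction.

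**Figure D1:**
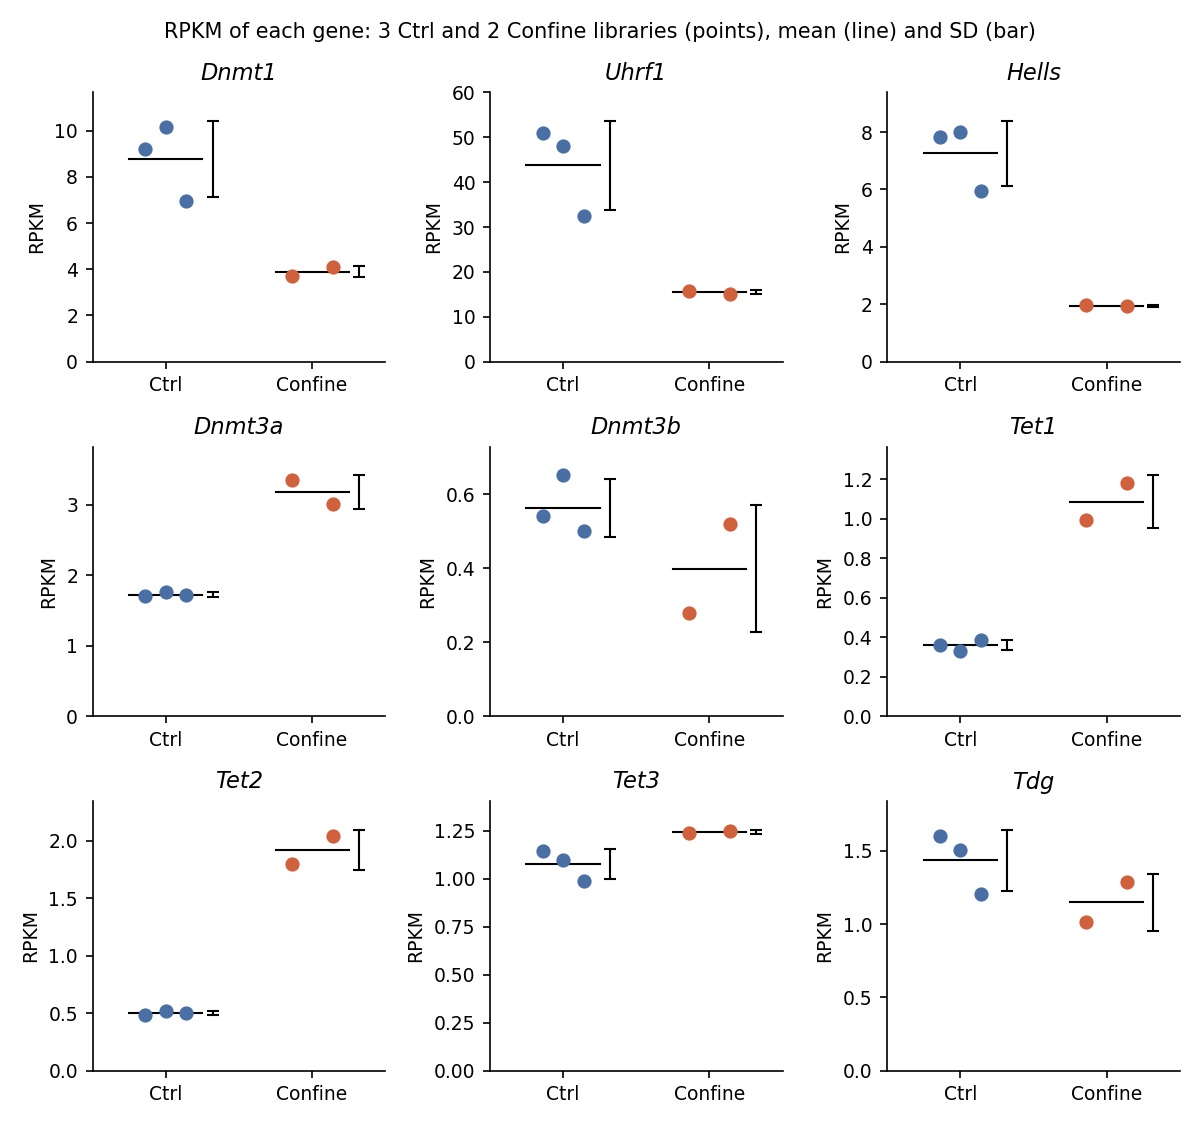
Levels of the 9 genes in RPKM (vertical axes, each starting at 0) in the 3 Ctrl and 2 Confine libraries. Points are libraries, lines are group means and bars are the SD. Both Confine points lie below all Ctrl points for Dnmt1, Uhrf1 and Hells and above them for Dnmt3a, Tet1, Tet2 and Tet3.

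Levels are given as RPKM, the TMM-normalized CPM divided by the kilobases of annotated exon, so that genes can be compared per length. Uhrf1, the reader of hemimethylated CpGs (chr17:56303321-56323486), had 50.9, 48.0 and 32.4 RPKM in Ctrl replicates 1 to 3 and 15.8 and 15.2 RPKM in Confine. It was the most abundant of the 9 genes in every library, and its lowest Ctrl library was still above both Confine libraries. The mean fell from 43.8 ± 9.90 (SD, n = 3) to 15.5 ± 0.437 RPKM (SD, n = 2). The log2 fold change was -1.499 ± 0.213 (SE; adjusted p = 4.00e-05), 2.83-fold lower, which misses the cutoff of 1.5 by its last digit.

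Dnmt1, the maintenance methyltransferase (chr9:20907209-20959888), had 9.21, 10.2 and 6.94 RPKM in Ctrl and 3.72 and 4.08 RPKM in Confine. Ctrl replicate 3 was the lowest of the Ctrl libraries for Dnmt1, as it was for Uhrf1 and Hells, and lay above both Confine libraries. Dnmt1 fell by 1.17 on the log2 scale (SE 0.205, adjusted p = 0.000325), 2.25-fold lower with a 95% interval of 1.67 to 3.03. In bulk RNA, fewer cells that express a gene and less of its RNA per cell cannot be told apart.

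Hells, the helicase-like remodeler (chr19:38930915-38971051), had 7.83, 7.99 and 5.94 RPKM in Ctrl and 1.97 and 1.92 RPKM in Confine. These counts, 1007 to 1632 in Ctrl and 349 to 421 in Confine, gave the largest fall of the 9 genes. The log2 fold change was -1.90 ± 0.206 (SE; adjusted p = 2.06e-06), 3.72-fold lower with a 95% interval of 2.76 to 5.03.

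Dnmt3a, a de novo methyltransferase (chr12:3806007-3914443), had 1.70, 1.76 and 1.72 RPKM in Ctrl and 3.35 and 3.01 RPKM in Confine. The Ctrl libraries lay close together and both Confine libraries were higher. Dnmt3a rose 1.84-fold, a log2 fold change of 0.88 ± 0.176 (SE; adjusted p = 0.00107). Its antisense neighbour Dnmt3aos shares exon bases with it but averaged 4.2 counts.

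Dnmt3b, the other de novo methyltransferase (chr2:153649450-153687730), had 0.541, 0.651 and 0.500 RPKM in Ctrl and 0.278 and 0.521 RPKM in Confine. The groups overlapped, and 42 to 88 counts per library were behind these values. The log2 fold change was -0.51, with a 95% interval of -1.24 to 0.23 (adjusted p = 0.332), an interval that holds both no difference and the change of Dnmt1. Without Confine replicate 2 the log2 fold change of Dnmt3b was -0.11 and without Confine replicate 3 it was -1.02.

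Tet2 (chr3:133463679-133545139) had 0.485, 0.520 and 0.499 RPKM in Ctrl and 1.80 and 2.05 RPKM in Confine, from 198 to 237 and 869 to 898 counts. The Ctrl libraries lay close together and both Confine libraries were several times higher. The log2 fold change was 1.94 ± 0.191 (SE; adjusted p = 6.58e-07), a 3.83-fold rise with a 95% interval of 2.90 to 5.06. Its size and that of the fall of Hells differed by less than their SE, and the order of the pair changed with the processing, Hells being the larger with library size alone (-2.10 against 1.73).

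Tet1 (chr10:62804570-62908996), the TET gene best known from pluripotent cells, had 0.362, 0.333 and 0.385 RPKM in Ctrl and 0.992 and 1.18 RPKM in Confine. It was the least abundant of the 9 genes in Ctrl, and the lower Confine library exceeded the highest Ctrl library. Transcripts of other genes share short stretches with Tet1, such as 124 bases at 96.8% identity in a transcript of Trappc4, which averaged 5549 counts. The part of such reads in the counts of Tet1 was not tested. Tet1 rose 3.02-fold, a log2 fold change of 1.59 ± 0.214 (SE; adjusted p = 2.22e-05). Of the 10 pluripotent and germ cell markers, 8 had no count in any library, Nanog had 5 to 29 counts and did not pass (adjusted p = 0.283), and Sox2 rose from 28, 51 and 31 counts in Ctrl to 102 and 62 in Confine, a log2 fold change of 1.08 (adjusted p = 0.0424). The part of such cells in the rise of Tet1 was not tested.

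Tet3 (chr6:83362373-83459084) had 1.14, 1.10 and 0.988 RPKM in Ctrl and 1.24 and 1.25 RPKM in Confine. The Confine libraries lay above the Ctrl libraries, but the log2 fold change of 0.21 had a 95% interval of -0.19 to 0.60 and did not pass (adjusted p = 0.478). With library size alone as the scaling its value was -0.00026, so no direction is given for Tet3. The upper bound of its interval lay below the lower bounds of Tet1, 1.14, and Tet2, 1.54.

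Tdg, the glycosylase that removes the oxidized bases (chr10:82629828-82650799), had 1.60, 1.51 and 1.20 RPKM in Ctrl and 1.01 and 1.29 RPKM in Confine. The groups overlapped, and the log2 fold change was -0.33 with a 95% interval of -0.84 to 0.19 (adjusted p = 0.380). Its counts are uncertain because exons of Tdg overlap those of the antisense gene Glt8d2, which fell by 1.98 on the log2 scale (adjusted p = 0.000471), and because the processed pseudogene Gm9855, with 47.8 counts on average, matches Tdg over 1194 bases. The library kit marked the strand, but whether the counting used it is not given in the sources used here.

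**Figure D2:**
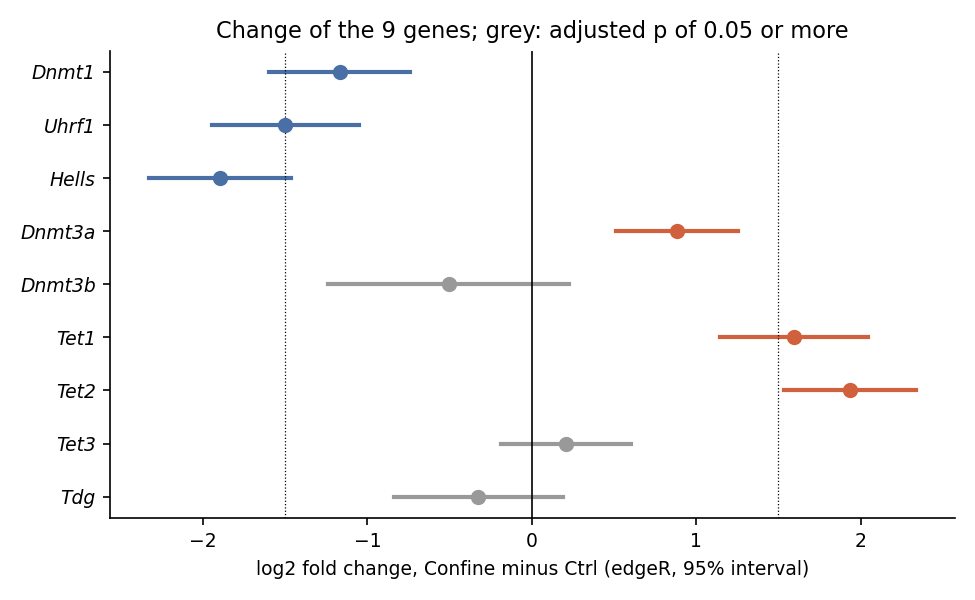
Log2 fold change of each gene between Confine and Ctrl (horizontal axis, edgeR) with its 95% interval. Blue genes were lower and red genes higher at an adjusted p under 0.05, grey genes did not pass, and dotted lines mark the cutoff of 1.5. Tet2 at 1.94 and Hells at -1.90 are at the ends.

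The order of levels within a library changed between the groups. Per exon length, mean levels in Ctrl ran from Uhrf1 through Dnmt1 at 8.77, Hells at 7.25, Dnmt3a at 1.73, Tdg at 1.44, Tet3 at 1.08, Dnmt3b at 0.564 and Tet2 at 0.501 to Tet1 at 0.360 RPKM. Dnmt1 and Hells differed there by less than the SD of Dnmt1, and Dnmt3b and Tet2 by less than the SD of Dnmt3b. In Confine the order was Uhrf1, Dnmt1 at 3.90, Dnmt3a at 3.18, Hells at 1.95, Tet2 at 1.92, Tet3 at 1.24, Tdg at 1.15, Tet1 at 1.09 and Dnmt3b at 0.399 RPKM. In Confine, Hells and Tet2 differed by less than the SD of Tet2, and Tdg differed from both Tet3 and Tet1 by less than its own SD. Annotated exons of Dnmt3a and the TET genes sum to between 15457 and 16870 bases over all transcripts, which lowers their RPKM if only shorter transcripts are made.

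The make-up of each family was also computed within each library, where scaling between libraries has no effect. Among the 3 methyltransferases, Dnmt1 held 79.0% ± 2.82 (SD, n = 3) of the summed RPKM in Ctrl and 52.1% ± 2.08 (SD, n = 2) in Confine. Dnmt3a held 15.9% ± 2.56 and 42.6% ± 4.25, and Dnmt3b 5.12% ± 0.369 and 5.31% ± 2.16. The summed level was 11.1 ± 1.74 RPKM in Ctrl and 7.48 ± 0.191 RPKM in Confine. Without division by exon length, Dnmt1 held 66.8% ± 4.09 of the summed CPM in Ctrl and 34.4% ± 2.73 in Confine, and Dnmt3a 30.2% ± 4.03 and 63.2% ± 3.81. The share of Dnmt1 was lower and that of Dnmt3a higher in both Confine libraries on both scales, whereas the gene that led in Confine depended on the scale. The summed CPM of 98.9, 108 and 82.3 in Ctrl and 84.6 and 82.9 in Confine overlapped between the groups.

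Among the TET genes, Tet3 held 55.5% ± 2.42 of the summed RPKM in Ctrl and 29.3% ± 1.96 in Confine. Tet2 held 25.9% ± 1.30 and 45.2% ± 0.720, and Tet1 18.6% ± 1.79 and 25.5% ± 1.24. Tet2 replaced Tet3 as the leading TET transcript in both Confine libraries. The summed TET level was 1.94 ± 0.0595 RPKM in Ctrl and 4.25 ± 0.319 RPKM in Confine.

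**Figure D3:**
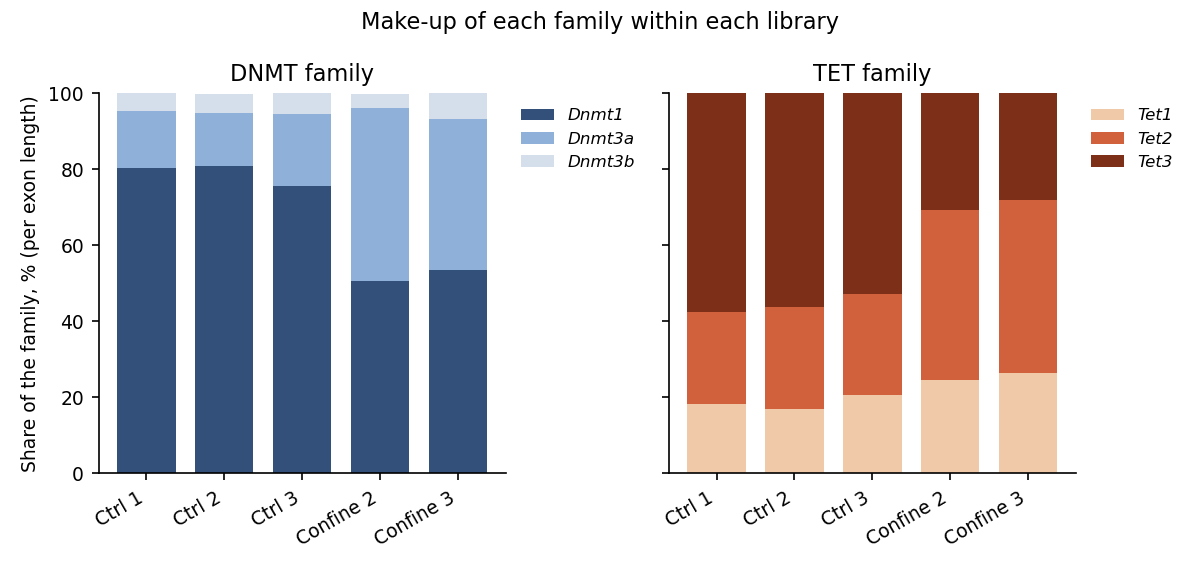
Share of each gene in the summed RPKM of its family (vertical axis, percent) in each of the 5 libraries (bars). The share of Dnmt1 is 75.8% to 80.8% in Ctrl and 50.6% to 53.6% in Confine, and that of Tet2 is 24.4% to 26.7% and 44.7% to 45.7%.

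The summed methyltransferase level was 5.75, 6.44 and 4.89 times the summed TET level in the Ctrl libraries and 1.82 and 1.70 times in the Confine libraries. The log2 difference of this ratio was -1.68, or -1.32 without division by exon length, and the groups did not overlap on either scale. Dnmt1 was 4.11, 4.22 and 3.13 times Dnmt3a and Dnmt3b together in Ctrl and 1.03 and 1.15 times in Confine. Tet2 was 0.425, 0.473 and 0.505 times Tet3 in Ctrl and 1.45 and 1.64 times in Confine. Within the maintenance genes, Hells over Dnmt1 was lower in Confine by a log2 difference of -0.73 and Uhrf1 over Dnmt1 by -0.32, but the 95% intervals of the 3 genes' own log2 fold changes overlapped. Tdg over the summed TET level had a log2 difference of -1.45 and Tet1 over Tet2 and Tet3 of 0.59. Dnmt3a over Dnmt3b had a log2 difference of 1.44, which was 0.91 without Confine replicate 2 and 1.97 without Confine replicate 3. For all 8 ratios the groups did not overlap and the two-sided exact permutation p was 0.1 (adjusted p = 0.1), the smallest that 3 against 2 libraries allow, so none could pass 0.05.

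Maintenance genes are transcribed mainly in cycling cells, so their fall was set beside a list of 21 S phase genes, of which 20 fell and none rose. The summed level of the list was 2264 to 2851 CPM in Ctrl and 865 to 951 CPM in Confine, and its median log2 fold change was -1.505, where that of all tested genes was -0.0021. Taken relative to the mean log2 CPM of this list in each library, Dnmt1 differed by 0.24 and Uhrf1 by -0.084 between Confine and Ctrl, and in both the groups overlapped. For Hells both Confine libraries lay below all Ctrl libraries on this scale, a difference of -0.49. In the list, 17 of the 21 genes fell more than Dnmt1, 11 more than Uhrf1 and 3 more than Hells. The fall of all 3 genes thus lay within the range of the S phase list, with Dnmt1 towards its weaker end and Hells towards its stronger end, and the part of cell cycle state in it was not tested. The largest falls in the list were those of the helicase genes Mcm5 (-2.05), Mcm2 (-1.95) and Mcm4 (-1.91) and the licensing gene Cdc6 (-1.84).

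The TET enzymes use oxygen, and hypoxia genes also differed between the groups. Of 12 such genes, 11 were tested and all 11 rose, with a median log2 fold change of 3.03 and a summed level of 3600 to 4698 CPM in Ctrl and 16260 to 16960 CPM in Confine. Car9, a carbonic anhydrase, had 36, 52 and 24 counts in Ctrl and 2087 and 1658 in Confine, and Ankrd37 rose by a log2 fold change of 5.11. The rises of Tet1, at 1.59, and Tet2, at 1.94, were smaller than this median but lay within the range of the list, 1.404 to 5.585. The part of hypoxia in them was not tested. Exons of Tet1, Tet2, Dnmt3a and Tet3, which did not pass, sum to over 15000 bases each. Of the 334 tested genes of that length 16.5% rose and 7.78% fell, with a median log2 fold change of 0.073.

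**Figure D4:**
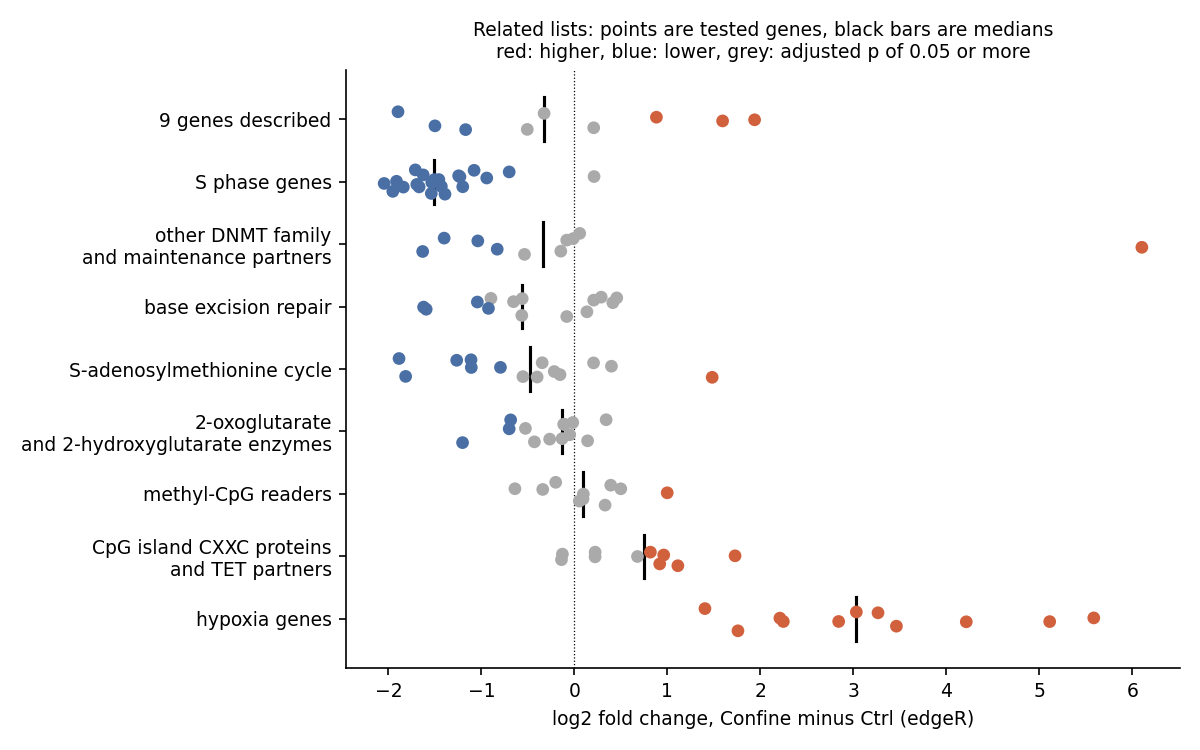
Log2 fold change between Confine and Ctrl (horizontal axis, edgeR) of each tested gene (points) in the 9 genes described and 8 related lists (rows), with the median of each row as a black bar. Red points rose, blue points fell and grey points did not pass. The 9 genes spread from -1.90 to 1.94, whereas 20 of 21 S phase genes fell and 11 of 11 tested hypoxia genes rose.

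Genes that work with the 9 enzymes were counted in lists chosen by function. Beside the counts of each list below, 12.8% of all tested genes rose and 10.2% fell, and no list was tested as a set. Of 12 other members of the methyltransferase family and maintenance partners, 10 were tested, 4 fell and 1 rose, with a median log2 fold change of -0.34. Cdca7, whose protein brings the HELLS remodeler to chromatin, fell by 1.63, with 719 to 1417 counts in Ctrl and 294 to 381 in Confine. The ligase gene Lig1 fell by 1.40, Cdca7l by 1.04 and the sliding clamp gene Pcna by 0.83 on the log2 scale. Uhrf2, the relative of Uhrf1, had a log2 fold change of -0.082 and did not pass (adjusted p = 0.803).

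Dnmt3l, the inactive cofactor of DNMT3A and DNMT3B, had 0, 1 and 0 counts in Ctrl and 35 and 30 counts in Confine. It was the 1 gene of the list above that rose, and only its Confine counts kept it among the tested genes. With counts pooled over the libraries of each group, the ratio of its rates was 93.6, with a counting interval of 16.2 to 3755. Its level in Confine was 0.397 ± 0.00205 RPKM (SD, n = 2), like that of Dnmt3b. Dnmt3l overlaps the gene Aire on the opposite strand, which had no count in Ctrl and 1407 and 906 counts in Confine, so the reads of Dnmt3l are uncertain.

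Of 12 CXXC-domain proteins and TET partners, 10 were tested and 5 rose, with none lower and a median of 0.75. Ogt, the O-GlcNAc transferase that binds TET2 and TET3, rose by a log2 fold change of 1.73, with 3679 to 4310 counts in Ctrl and 11399 to 16934 in Confine. Gadd45b, a stress gene linked to active demethylation, rose by 1.11 on the log2 scale. The other 3 that rose were Zfp281, Sinhcaf and Kdm2a.

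Among 15 genes of base excision repair, which completes the removal begun by TDG, 14 were tested, 4 fell and none rose, with a median of -0.56. Fen1, with a log2 fold change of -1.62, and Neil3, with -1.59, passed the cutoff of 1.5, and Apex1 and Parp1 also fell. Of 10 methyl-CpG readers, 1 rose, Zbtb4, by a log2 fold change of 1.00, and 9 did not pass, a share near the 12.8% of all tested genes that rose. The readers had a median of 0.095.

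Methyl groups come from S-adenosylmethionine, and of the 16 genes of its cycle and of folate-dependent one-carbon supply 14 were tested, 6 fell and 1 rose, with a median of -0.48. The serine hydroxymethyltransferase genes Shmt1 and Shmt2 fell by 1.88 and 1.81 on the log2 scale. Mat2a, which makes S-adenosylmethionine, and Ahcy, which clears the product that inhibits methyltransferases, each fell by 1.11, and Mthfd1l rose by 1.48. The size of the first 2 falls is uncertain, as Confine replicates 2 and 3 had 196 and 93.5 CPM for Mat2a and 15.5 and 30.3 CPM for Ahcy. Among 13 genes of 2-oxoglutarate and 2-hydroxyglutarate metabolism, 3 fell and none rose, with a median of -0.13. Idh1, whose enzyme makes 2-oxoglutarate in the cytosol, fell by 0.68 on the log2 scale.

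Transcripts of germline genes that promoter methylation is known to silence in somatic cells were read as well. Of 16, 10 had no count in any library, which at this depth allows up to 0.101 to 0.128 CPM (3 counts) per library, and 15 were too low to test. The remaining one, Rhox5, had 714, 739 and 565 counts in Ctrl and 704 and 611 in Confine, a log2 fold change of -0.089 (adjusted p = 0.784). DNA methylation itself was not measured in these samples.

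The genes whose pattern over the 5 libraries was most like that of Tet2, by the root mean square difference of centred log2(CPM + 0.1) among 13009 genes, were Hk1 at 0.041, Arrdc3 at 0.053 and Dpf1 at 0.061. Their log2 fold changes were 1.96, 1.85 and 1.84. Those most like Hells were Ncapg2 at 0.068, Klhl23 at 0.071 and Shmt1 at 0.073, with log2 fold changes of -1.82, -1.85 and -1.88.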

How the data were processed

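RNA-seq was read for 3 Ctrl and 3 Confine columns of MEF cells. The authors deposited raw counts per gene, not normalized, made from polyadenylated RNA with a dUTP kit that marks the strand. The submitters' processing notes name Trim Galore 0.6.10, HISAT2 2.1.0, SAMtools 1.5, featureCounts and mm10, while the annotation and the strand setting are not given in the sources used here. Of the 55335 gene identifiers, 54587 matched GENCODE M21 (GRCm38) with their version, and it gave names, positions and exon lengths. The repeated Confine column was named replicate 2 because it equals the second of 3 Confine columns in the study's source table, whose values were not used.

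Ctrl replicates 1 to 3 summed to 27853805, 24450853 and 22287210 counts, and Confine replicates 2 and 3 to 32537550 and 27290138. Counts were filtered by filterByExpr (15881 genes kept), normalized by TMM (factors 1.04, 1.08 and 1.06 in Ctrl, 0.910 and 0.924 in Confine) and tested in edgeR 4.0.16 (R 4.3.3) by its quasi-likelihood method, with Benjamini-Hochberg adjustment over all genes tested. A gene passed at an adjusted p under 0.05, and every adjusted p in the text without another name is from this fit. With 3 Ctrl and 2 Confine libraries, the fit had 3 residual degrees of freedom, and the median prior degrees of freedom were 14.8. On counts simulated for 15881 genes, 87% of 200 genes changed 4-fold were recovered, and 4.40% of calls were false. In the real fit 3654 genes passed, and some changed by less, such as Dnmt3a at 1.84-fold, so these rates may not hold for it. Because reads carried no molecular identifiers, counting intervals and floors describe counting error alone.

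The genes named were the 9 chosen, the genes of each list past the cutoff of 1.5 (at most 4 by size, otherwise the 2 with the smallest adjusted p), the 3 genes most like the largest rise and the largest fall, and Actb. Other list genes were named for their roles after their values were seen. Single values of some list genes are not reported here. The 9 genes, the lists and the words searched were chosen with earlier results of these data known. The alternatives were other scalings, filters, DESeq2 1.42.0, limma-voom (limma 3.58.1), a replicate block and each library left out in turn.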

Additional observations from a re-analysis of the deposited data

How the results depend on the processing

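The calls of Dnmt1, Uhrf1, Hells, Dnmt3a, Tet1 and Tet2 held under all 15 alternatives to their test, and Dnmt3b, Tet3 and Tdg passed under none. The highest adjusted p among the 6 was 0.0351, for Dnmt3a without Confine replicate 2. Tet3 turned to -0.00026 (adjusted p = 1.00) with library size alone, which moved the median of all tested genes to -0.21. With the cutoff of 1.5, 1 of the 9 genes was lower and 777 and 494 of all tested genes were higher and lower. The number of all genes lower was 2805 with library size alone and 2456 with the identical columns counted as 2 samples. The log2 difference of the methyltransferase over TET ratio was -1.32 without division by exon length. Leaving out each library gave 3 higher and 3 lower among the 9 genes each time, 1196 to 2411 higher and 850 to 2015 lower among all genes, 18 to 21 higher and 30 to 42 lower in the related lists, and 0.91 to 1.97 for Dnmt3a over Dnmt3b. The counts without Confine replicate 2 (850 lower) and without Confine replicate 3 (1196 higher, 858 lower) rest on a single Confine library, assumed to vary like Ctrl. No pairing by replicate number was seen in the differences between replicates 3 and 2 of the 2 groups, which had a correlation of -0.053 across 15881 genes. With the repeated library taken as number 1, the differences between replicates 3 and 1 had a correlation of 0.052. Each check compares 1 difference per group, and shared batches were not tested. A replicate block with the repeated library as number 2 left 2528 genes passed in place of 3654. With the repeated library as number 1 in the block 4933 passed, and all 6 calls held in both. Dnmt3b rests on 42 to 88 counts per library.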
